A study of Homo sapiens with 6 samples.

Results

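The proteasome genes described here are the rows of the deposited gene table whose symbol is PSMA, PSMB, PSMC, PSMD, PSME, PSMF or PSMG followed by digits alone, which leaves out pseudogenes and antisense genes. Of 57905 rows, 50 met this rule. They carried 48 symbols, since PSMA1 and PSMA2 each had a further row under another Ensembl identifier. Of the 50 rows, 46 held enough reads to be tested, among 15343 tested genes. PSMD4 and PSMD5 had been set apart from the other proteasome genes by their difference between these same libraries, so their values are given as a description, without a test.

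The 26S proteasome is the large protease that degrades proteins tagged with ubiquitin. Its 20S core particle is a barrel of stacked rings, with alpha subunits (PSMA) at the ends and beta subunits (PSMB), which hold the catalytic sites, in the middle. The 19S regulatory particle caps the barrel. Its base holds the ATPases (PSMC) that unfold substrates together with PSMD1, PSMD2 and the ubiquitin receptor PSMD4, and its lid holds further PSMD subunits, among them the deubiquitinase PSMD14. Dedicated chaperones assemble the parts, and the subunit genes are known to be induced together by the transcription factor NFE2L1.

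RNA-seq was performed on HK-2 cells, an immortalized line from human renal proximal tubule. Either a pool of siRNAs against INO80, the ATPase of a chromatin remodelling complex, or a non-targeting control pool was transfected, and cells were harvested after 48 h. There were 3 libraries per group, the control cells being labelled WT and the others knockdown. The labels do not say whether replicates came from separate cultures, so p-values measure the spread between these libraries, which may be technical. A single siRNA pool was used per group, so loss of INO80 and any other action of that pool cannot be told apart.

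Between 16829273 and 20311588 reads were counted on genes per control library and between 20678008 and 23784599 per INO80 siRNA library. In CPM, the reads of a gene for each 1000000 counted in a library after TMM scaling, INO80 itself stood at 46.3, 49.3 and 54.0 in the control libraries and at 13.8, 12.05 and 14.2 after INO80 siRNA. The knockdown left 26.7% of the control level (log2 fold change -1.90, SE 0.10, adjusted p = 0.000161). Of 12 markers of proximal tubule, 9 stayed under 3 CPM in each library, among them the endocytic receptors LRP2 and CUBN, while GGT1 and PAX8 were among those expressed. Of 10 markers of other kidney cells, 9 had a row, and of these COL1A1 alone exceeded 3 CPM (39.6 to 47.0 under control siRNA and 44.9 to 60.9 after INO80 siRNA). The epithelial genes KRT8, KRT18 and EPCAM were expressed and CDH1 stayed under 3 CPM. No marker passed without the replicate block described below. At an unadjusted p under 0.05 EPCAM was lower and COL1A1 higher, and DESeq2 called EPCAM. With the block EPCAM and PAX8 (the latter lost without replicate pair 3, adjusted p = 0.461) were among those lower and COL1A1 and KRT18 among those higher, and their part in the results was not tested. In bulk RNA, fewer cells of a type and less RNA per cell cannot be told apart.

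Promoter sequences of the proteasome genes are shown first because the genes are known to share a promoter element. The element is the antioxidant response element, the binding site of NFE2L1, and its core was searched as TGACNNNGC on both strands. RefSeq promoters (GRCh38.p14, 250 bases before to 50 after the start) were at hand for 42 of the 48 symbols, with 51 promoters in all. PSMA7, PSMB1, PSMB6, PSMB7, PSMD4 and PSMG3 had none. The core was found in 15 of the 51 promoters (29.4%), 1 for each of 15 genes, and in 13.3% of all 35116 promoters. It occurred in genes of the alpha ring, the beta ring, the base, the lid, the chaperones and the activators. The lines below show the core in capitals within 10 bases on each side, read 5′ to 3′ along the core, for 9 genes that stand for these roles. PSMC5 has it on the strand opposite to the gene.
PSMA4 (chr15:78540650-78540678): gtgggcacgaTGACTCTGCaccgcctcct
PSMB3 (chr17:38752627-38752655): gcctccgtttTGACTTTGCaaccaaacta
PSMC5 (chr17:63827654-63827682): agggcggcgcTGACACAGCagatccggtc
PSMD3 (chr17:39980760-39980788): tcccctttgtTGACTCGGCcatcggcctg
PSMD12 (chr17:67366724-67366752): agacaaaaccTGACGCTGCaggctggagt
PSMD9 (chr12:121888678-121888706): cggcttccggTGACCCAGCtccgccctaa
PSMD5 (chr9:120843038-120843066): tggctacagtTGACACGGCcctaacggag
PSME1 (chr14:24136098-24136126): atggcagggcTGACCCCGCctcctccatc
PSMG1 (chr21:39183616-39183644): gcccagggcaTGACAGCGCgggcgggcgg

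In PSMD5 the core lay 134 bases before the start. The 250 bases before the start of PSMD5 are given whole, with the core in capitals, because this gene had the lowest log2 fold change of the 46 tested.
PSMD5 (chr9:120842923-120843172, minus strand): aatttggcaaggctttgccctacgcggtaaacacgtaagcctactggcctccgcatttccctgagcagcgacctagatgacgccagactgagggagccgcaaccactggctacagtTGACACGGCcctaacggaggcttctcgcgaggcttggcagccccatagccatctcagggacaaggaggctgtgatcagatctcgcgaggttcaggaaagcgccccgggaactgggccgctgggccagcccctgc

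Other elements were searched in the same windows on both strands. GGGCGG, the Sp1 box, was in 35 of the 51 proteasome promoters (68.6%) and in 45.0% of all promoters. CCGGAAG, a core bound by ETS factors, was in 15 (29.4%) against 10.3%. CCAAT was in 20 (39.2%) against 34.6%, and GCCATNTTG, the core bound by YY1, was in 4 (7.84%) against 2.92%, in PSMB4, PSMB5 and PSMD5. These are matches of letters, and no binding was measured.

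The proteasome genes differed widely in level. Levels are given in FPKM, the reads per kilobase of exonic length for each 1000000 counted, so that genes can be compared with each other. PSMA7, an alpha ring subunit, had the highest level under control siRNA with 203 ± 14 FPKM (SD, n = 3), followed by PSMD2, a scaffold of the base, with 158 ± 5.26. The 6 beta ring subunits PSMB3, PSMB4, PSMB7, PSMB1, PSMB6 and PSMB5 came next, from 117 ± 5.33 down to 90.4 ± 2.77, and PSMB2 stood at 84.3 ± 4.70. At the other end were PSMA2 with 3.82 ± 0.0666, PSMD9 with 3.30 ± 0.522 and PSMG4, a chaperone of the core particle, with 1.34 ± 0.0503.

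Among neighbours in this order, PSMA7 lay above PSMD2 and PSMD2 above PSMB3 in each control library, whereas PSMB3 and PSMB4 overlapped. From PSMD7 at rank 12 to PSMC5 at rank 21, each gene overlapped the next, and PSMD4 at rank 16 with 45.6 ± 2.45 FPKM lay in the middle of this run. After INO80 siRNA, PSMD4 moved to rank 23 and PSMD5 moved from rank 33 to rank 38. Some exonic lengths are long because they join all transcripts of a gene, such as 10418 bases for PSMG4 against 785 for its canonical transcript. For PSMB2 and PSMC1 the deposited exonic length is instead the shorter one (2701 against 4426 bases and 3356 against 4390). With the canonical lengths of GENCODE v44, PSMG4 moved from rank 46 to rank 40, PSMD6 from rank 41 to rank 23 and PSMB2 from rank 9 to rank 25, and the lowest gene was PSMC1 in place of PSMG4. PSMA7 and PSMD2 kept ranks 1 and 2.

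**Figure D1:**
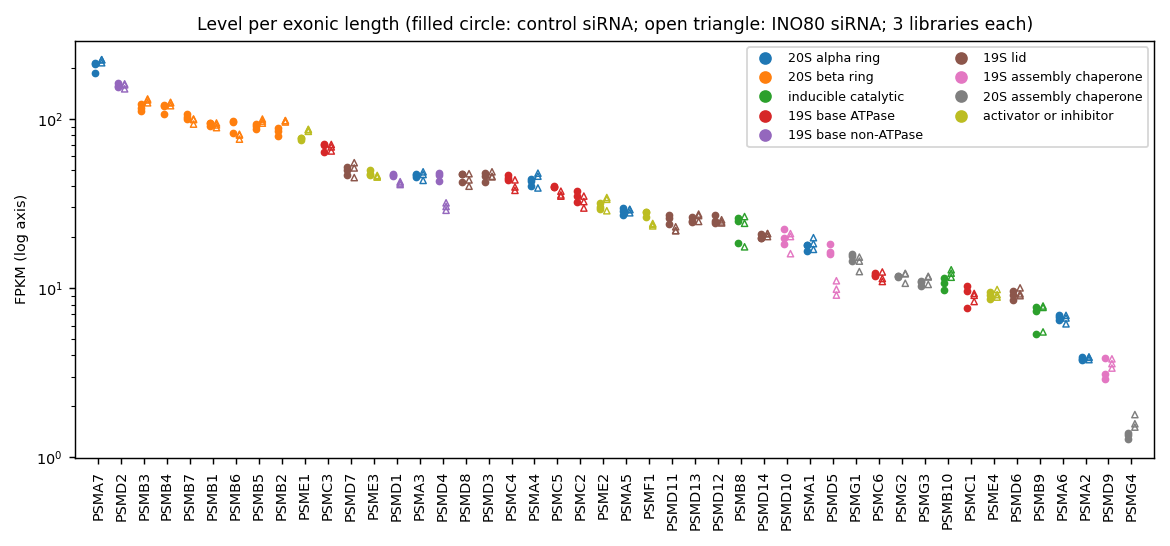
Level of the 46 tested proteasome genes in FPKM on a log axis, ordered by the mean under control siRNA, with filled circles for the 3 control libraries, open triangles for the 3 INO80 siRNA libraries and colours for the role. PSMA7 stands highest with a mean of 203 FPKM and PSMG4 lowest with 1.34, and the open symbols of PSMD4 and PSMD5 lie below the filled ones.

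Most proteasome genes changed little when INO80 was knocked down. The median log2 fold change of the 46 genes was -0.02, beside 0.01 for all tested genes. Without PSMD4 and PSMD5, the other 44 lay between -0.23 and 0.27, with 22 below and 22 above 0, and their SE ran from 0.05 to 0.16. The log2 fold change reached 0.3 upwards or downwards in 2 of the 46 (4.35%) and in 19.2% of all tested genes. The SD of the log2 fold change was 0.18 over the 46, 0.11 over the 44 and 0.27 over all tested genes. The SD over the 44 leaves out the 2 genes that had been chosen for their difference. The proteasome genes were also well counted, with a median SE of 0.06 beside 0.12 for all tested genes. Genes were not matched by level, and the part of level in the narrower spread was not tested. The median coefficient of variation between control libraries was 3.44% for them and 9.37% for all tested genes.

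**Figure D2:**
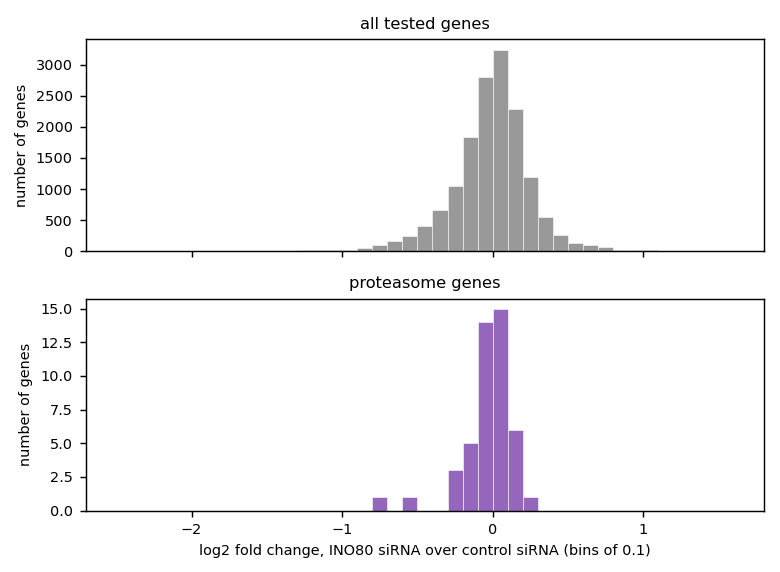
Number of genes per bin of log2 fold change (INO80 siRNA over control siRNA, bins of 0.1) for the 15343 tested genes above and the 46 proteasome genes below. The separate bars at the left of the lower panel are PSMD5 at -0.76 and PSMD4 at -0.60, and the other genes lie between -0.23 and 0.27.

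An adjusted p under 0.05 over all tested genes, with edgeR's quasi-likelihood test, was reached by 2 proteasome genes that were lower (PSMD4 and PSMD5), where 1.49% of all tested genes were lower, and by 0 that were higher, where 0.261% were. Since PSMD4 and PSMD5 had been chosen on this contrast, nothing is read from that count. At an unadjusted p under 0.05, 7 were lower and 4 higher, beside 9.2% and 7.18% of all tested genes. DESeq2 called 3 lower, with PSMF1 added (adjusted p = 0.0732 with edgeR), beside 3.61% of the 13320 genes it gave an adjusted p, and 0 higher, beside 0.968%. When the replicate number was added as a block, 9 of the 46 (19.6%) were lower and 5 (10.9%) higher, beside 13.4% and 11.4% of all tested genes. Without replicate pair 1, 2 or 3 the blocked fit called 18, 8 and 7 of the 46. Over all genes these fits called 3978, 2623 and 2251. Of the 14 calls with the block, those of PSMB2, PSMB6, PSMD1, PSMD11 and PSMF1 were present whichever pair was left out. So were those of PSMD4 and PSMD5, from which nothing is read, since both had been chosen on these libraries. All 3 INO80 siRNA libraries lay below the 3 control libraries for 9 proteasome genes, against 11.5% of all tested genes, and above them for 8, against 11.3%.

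**Figure D3:**
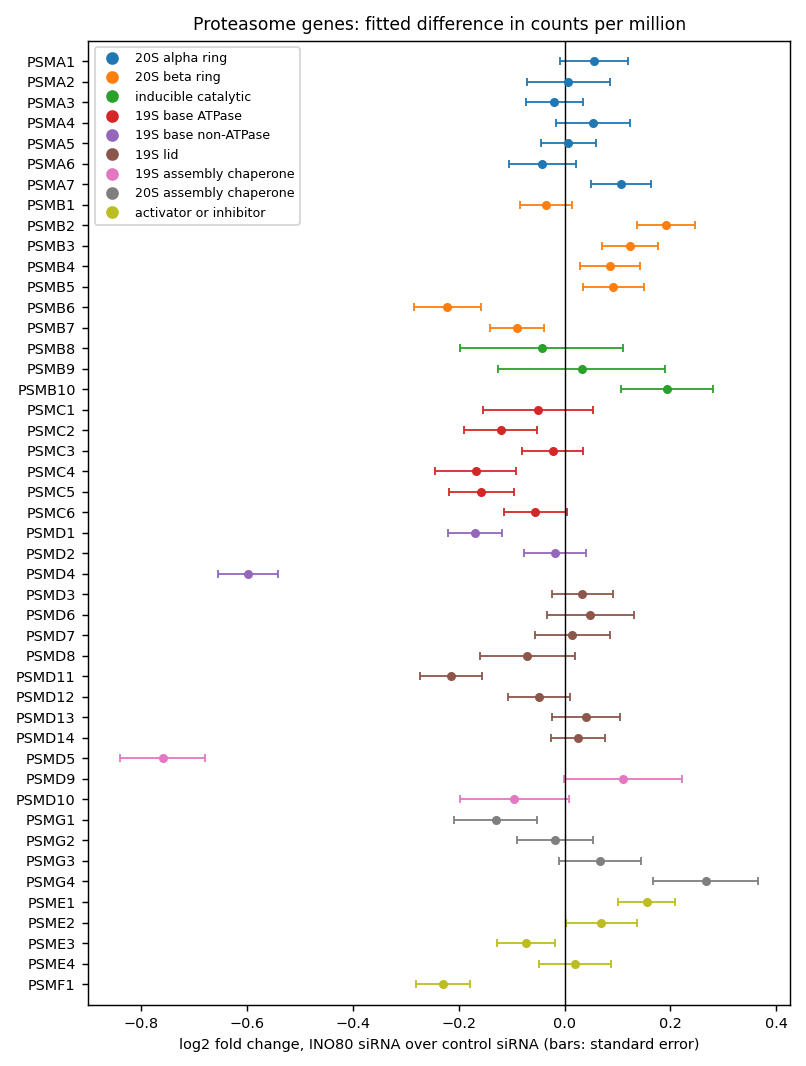
Log2 fold change (INO80 siRNA over control siRNA) of the 46 tested proteasome genes with its standard error as bars, grouped and coloured by role. PSMD4 at -0.60 and PSMD5 at -0.76 stand to the left of the other genes, which lie between -0.23 and 0.27.

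PSMD4, known in yeast as Rpn10, is the base subunit that binds ubiquitin chains and sits between base and lid. The gene (ENSG00000159352) lies at chr1:151227179-151239955 on the plus strand in the coordinates of the deposited table, GRCh37. It was counted at 133, 143 and 139 CPM in the control libraries and at 89.7, 90.4 and 94.7 after INO80 siRNA. The groups did not overlap, and the level after knockdown was 66.0% of the control level (log2 fold change -0.60, SE 0.06). Within replicate numbers 1, 2 and 3 the log2 ratio was -0.57, -0.67 and -0.56.

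Its place among the subunits can also be given within each library, which restates the choice of PSMD4 on another scale. PSMD4 made up 6.31%, 6.70% and 6.39% of the summed FPKM of the 17 base and lid subunits in the control libraries, and 4.34%, 4.60% and 4.66% after INO80 siRNA. Its ratio to the geometric mean of the other 16 was 1.44 ± 0.0492 under control siRNA and 0.989 ± 0.0360 after INO80 siRNA (SD, n = 3 each).

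PSMD1 and PSMD2, the scaffold subunits of the base, differed less. PSMD1 was counted at 246, 237 and 244 CPM in the control libraries and at 217, 216 and 212 after INO80 siRNA, without overlap. Its log2 fold change of -0.17 (SE 0.05) did not pass the test without the block (adjusted p = 0.144) and passed with it (adjusted p = 0.000712). PSMD2, the other scaffold and a docking site for ubiquitin shuttle factors, had a log2 fold change of -0.02 (SE 0.06, adjusted p = 0.916).

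The 6 ATPases of the base form the ring that unfolds substrates. Their log2 fold changes were all below 0, from -0.17 for PSMC4 to -0.02 for PSMC3, with a median of -0.09, where 48.5% of all tested genes lay below 0, and 0 of 6 passed without the block or with DESeq2. The lowest adjusted p with edgeR was 0.250, and at an unadjusted p under 0.05 1 of 6 was lower (PSMC5) and 0 higher, against the shares of all genes given above. With the block 3 passed, all lower, where 13.4% of all tested genes were lower. The 3 were PSMC5 (adjusted p = 0.00249), PSMC4 (adjusted p = 0.00823) and PSMC2 (adjusted p = 0.0251). These 3 calls were lost without replicate pair 2 (adjusted p = 0.0530, 0.121 and 0.146) and without pair 3 (0.0769, 0.173 and 0.153). PSMC5 was counted at 183, 176 and 179 CPM in the control libraries and at 172, 154 and 156 after INO80 siRNA, and its groups did not overlap. For PSMC4 the highest INO80 siRNA library, at 107 CPM, lay above 2 of the 3 control libraries.

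Of the 8 lid subunits with a PSM symbol, 7 passed in neither fit. Their log2 fold changes ran from -0.07 for PSMD8 to 0.05 for PSMD6, and PSMD14, the deubiquitinase that removes the ubiquitin chain, stood at 0.03 (SE 0.05, adjusted p = 0.861). PSMD11, a lid scaffold known for its high level in embryonic stem cells, passed with the block. It was counted at 176, 194 and 186 CPM in the control libraries and at 162, 155 and 163 after INO80 siRNA. The groups did not overlap, and the log2 fold change of -0.21 (SE 0.06) had an adjusted p = 0.117 without the block and 0.000230 with it. With the block 13.4% of all tested genes were lower.

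PSMD5 is a chaperone that holds the ATPases PSMC1 and PSMC2 while the base is assembled and is absent from the finished proteasome. The gene (ENSG00000095261) lies at chr9:123577774-123605262 on the minus strand in GRCh37. It was counted at 72.6, 80.3 and 71.5 CPM in the control libraries and at 41.4, 48.2 and 42.8 after INO80 siRNA. The groups did not overlap, and the level after knockdown was 59.1% of the control level (log2 fold change -0.76, SE 0.08). Within replicate numbers the log2 ratio was -0.81, -0.74 and -0.74. Without the third INO80 siRNA library, PSMD5 lost its place under the threshold while its log2 fold change was -0.74, and PSMD4 kept its place. Both genes had been chosen on these libraries, so nothing is read from calls in such fits.

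Of all tested genes, 204 (1.33%) had a lower log2 fold change than PSMD5, and 448 (2.92%) had a lower one than PSMD4. These ranks describe genes chosen on this same contrast, so nothing is read from them.

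Base assembly uses 4 known chaperones, PSMD5, PSMD9, PSMD10 and PAAF1. PAAF1, which binds PSMC5, carries no PSM symbol. It was counted at 10.1, 11.5 and 9.57 CPM in the control libraries and at 5.47, 5.59 and 6.40 after INO80 siRNA. The groups did not overlap, and PAAF1 was lower after INO80 siRNA (log2 fold change -0.83, SE 0.13, adjusted p = 0.0277). This call was lost when any of the 6 libraries was left out (adjusted p from 0.0600 to 0.123), while the log2 fold change stayed between -0.91 and -0.76. With the block its adjusted p was 1.11e-05.

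The groups of the other base chaperones overlapped. PSMD9 was counted at 26.2, 34.0 and 27.2 CPM in the control libraries and at 32.3, 33.0 and 29.1 after INO80 siRNA, (log2 fold change 0.11, SE 0.11, adjusted p = 0.689). PSMD10, also known as the oncoprotein gankyrin, was counted at 46.0, 48.7 and 54.8 and at 40.4, 50.8 and 48.7 (log2 fold change -0.10, SE 0.10, adjusted p = 0.709).

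**Figure D4:**
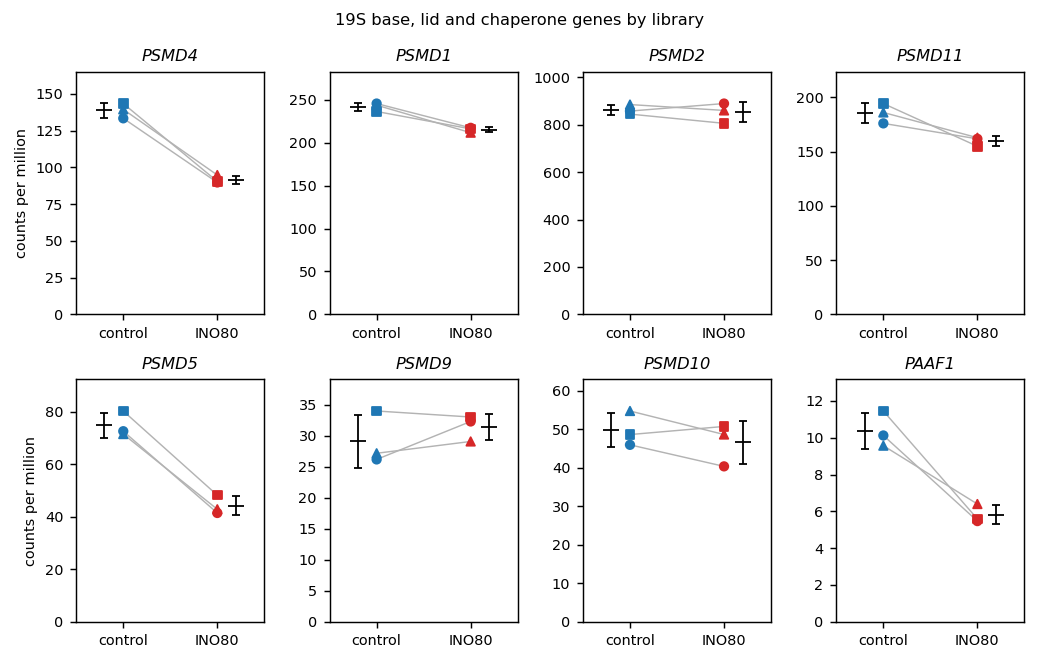
CPM from 0 for base, lid and chaperone genes of the 19S particle in each library, with circles, squares and triangles for replicates 1, 2 and 3, grey lines joining equal replicate numbers, and black bars for mean ± SD. PSMD4 (133 to 143 against 89.7 to 94.7), PSMD5 and PAAF1 show no overlap between control and INO80 siRNA, while PSMD2, PSMD9 and PSMD10 overlap.

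Of the 14 ring genes of the core particle, 0 passed without the block or with DESeq2. At an unadjusted p under 0.05, 1 was lower and 2 were higher, where 9.2% and 7.18% of all tested genes were. The 7 alpha ring genes had log2 fold changes from -0.04 for PSMA6 to 0.11 for PSMA7. PSMA7 was counted at 336, 370 and 365 CPM in the control libraries and at 386, 384 and 384 after INO80 siRNA. These groups did not overlap, and the adjusted p was 0.405 without the block and 0.0258 with it. The latter call was lost whichever replicate pair was left out (adjusted p = 0.115, 0.0520 and 0.102 without pair 1, 2 and 3). The summed FPKM of the 14 ring subunits was 1043 ± 50.7 under control siRNA and 1081 ± 28.8 after INO80 siRNA (SD, n = 3 each), and the single libraries overlapped.

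The beta ring held members on both sides of 0. PSMB2 was counted at 220, 229 and 238 CPM in the control libraries and at 266, 259 and 259 after INO80 siRNA, and PSMB3 at 135, 143 and 136 against 151, 152 and 150. Neither overlapped, and with the block both passed (log2 fold change 0.19, adjusted p = 0.000302, and 0.12, adjusted p = 0.0180). PSMB3 lost this call without replicate pair 2 (adjusted p = 0.0593) and without pair 3 (0.147). PSMB6, which carries the caspase-like activity, was counted at 121, 134 and 137 and at 111, 112 and 113, without overlap. Its log2 fold change of -0.22 (SE 0.06) had an adjusted p = 0.130 without the block and 0.000244 with it. PSMB4 (log2 fold change 0.09) and PSMB5 (0.09) lay above their control libraries without overlap, PSMB1 (-0.04) and PSMB7 (-0.09) lay below, and these 4 passed in neither fit. Of all tested genes, 11.5% lay below and 11.3% above the control libraries without overlap. With the block 13.4% of them were lower and 11.4% higher.

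Catalytic beta subunits come in constitutive and inducible forms, the latter making the immunoproteasome that trims peptides for antigen presentation. The inducible PSMB8 replaces PSMB5, PSMB9 replaces PSMB6 and PSMB10 replaces PSMB7. In FPKM, PSMB8 was 20.3% ± 2.50 of the sum of PSMB8 and PSMB5 under control siRNA and 18.9% ± 3.47 after INO80 siRNA. Within replicate numbers 1, 2 and 3 this share went from 17.5% to 14.96%, from 21.9% to 21.4% and from 21.6% to 20.4%. PSMB9 was 6.88% ± 0.698 and 8.12% ± 1.17 of its pair. Within replicate numbers it went from 6.08% to 6.78%, from 7.14% to 8.91% and from 7.40% to 8.67%. These shares were not tested. As genes, PSMB8 had a log2 fold change of -0.04 (SE 0.15, adjusted p = 0.926) and PSMB9 of 0.03 (SE 0.16, adjusted p = 0.949). PSMB6, the other gene in the share of PSMB9, had a log2 fold change of -0.22. PSMB10 was 8.87%, 9.47% and 9.72% of its pair in the control libraries and 11.1%, 11.4% and 11.02% after INO80 siRNA, without overlap. As a gene, PSMB10 had a log2 fold change of 0.19 (SE 0.09, adjusted p = 0.319, and 0.0598 with the block).

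For PSMB8 and PSMB9, replicate 1 stood below the other libraries under both siRNAs. PSMB8 was counted at 38.1 CPM in control replicate 1 and 36.2 in INO80 siRNA replicate 1, and at 47.6 to 52.2 in the other 4 libraries. PSMB9 stood at 16.9 and 17.4 in replicate 1 and at 22.3 to 23.7 in the others. PSMB10 overlapped between replicate 1 and the rest. Of all tested genes, 15.1% lay lower in replicate 1 of both groups than in the other 4 libraries, and of the 46 proteasome genes 8 did.

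**Figure D5:**
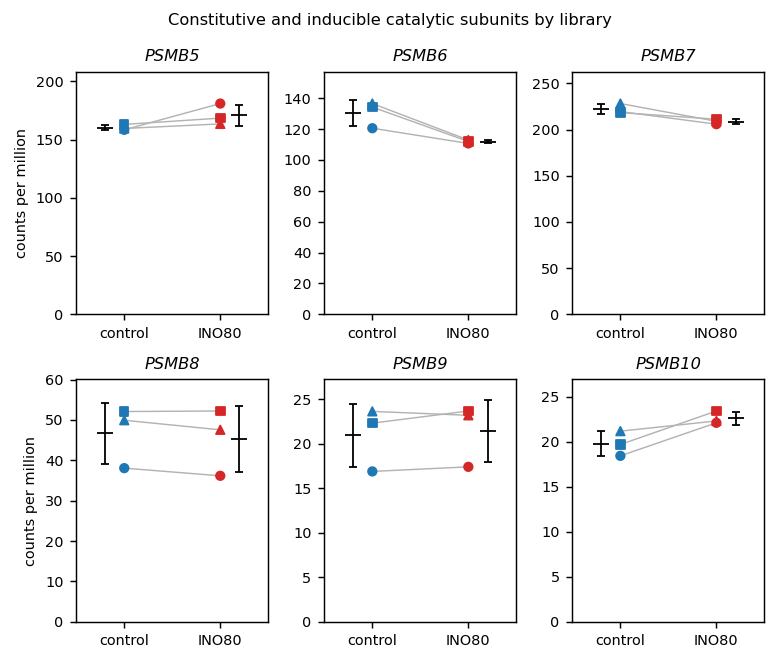
CPM from 0 for the constitutive catalytic subunits PSMB5, PSMB6 and PSMB7 and their inducible counterparts PSMB8, PSMB9 and PSMB10 in each library, with circles, squares and triangles for replicates 1, 2 and 3, grey lines joining equal replicate numbers, and black bars for mean ± SD. The circles of replicate 1 lie lowest for PSMB8 (38.1 and 36.2) and PSMB9 (16.9 and 17.4) under both siRNAs.

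Genes of antigen presentation were a list of 14, all tested, with a median log2 fold change of 0.04. Without the block 0 of 14 passed. TAP1 alone had an unadjusted p under 0.05 (lower, where 9.2% of all tested genes were). DESeq2 called TAP1 alone, beside 3.61% lower and 0.968% higher of the genes it gave an adjusted p. TAP1, the peptide transporter whose row overlapped that of PSMB9 over 8770 bases on the opposite strand, stood at 53.4, 50.2 and 52.8 CPM in the control libraries and at 44.1, 42.5 and 40.1 after INO80 siRNA (log2 fold change -0.30, SE 0.07, adjusted p = 0.0659). NLRC5, the transactivator of class I genes, had a log2 fold change of 0.26 (SE 0.13, adjusted p = 0.354). With the block, TAP1 was lower (adjusted p = 0.000140) and HLA-B (log2 fold change 0.15, adjusted p = 0.00345) and CALR (log2 fold change 0.11, adjusted p = 0.00854) were higher. Of all tested genes, 13.4% were lower and 11.4% higher with the block. The calls of HLA-B and CALR were lost without replicate pair 3 (adjusted p = 0.161 and 0.122).

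The activators and the inhibitor of the core particle gave the following values. PSMF1, the inhibitor PI31, was counted at 133, 137 and 137 CPM in the control libraries and at 117, 116 and 114 after INO80 siRNA. The groups did not overlap (log2 fold change -0.23, SE 0.05), and the adjusted p was 8.97e-05 with the block. PSME1 and PSME2 form the interferon-inducible PA28 cap. PSME1 stood at 141, 137 and 132 in the control libraries and at 154, 151 and 151 after INO80 siRNA, without overlap (log2 fold change 0.15, SE 0.05, adjusted p = 0.194 without and 0.00344 with the block, and 0.0914 with the block but without replicate pair 3). PSME2 overlapped (log2 fold change 0.07, SE 0.07), as did PSME3, the nuclear PA28 cap (-0.07, SE 0.06), and PSME4, the nuclear PA200 cap (0.02, SE 0.07).

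The chaperones PSMG1 to PSMG4 guide the assembly of the alpha ring. PSMG4 was counted at 14.8, 13.4 and 13.97 CPM in the control libraries and at 16.2, 16.2 and 18.3 after INO80 siRNA, without overlap, and had the highest log2 fold change of the 46 (0.27, SE 0.10, adjusted p = 0.229 without and 0.0234 with the block). The latter call was lost without replicate pair 2 (adjusted p = 0.0933) and without pair 3 (0.252). PSMG1 (log2 fold change -0.13), PSMG2 (-0.02) and PSMG3 (0.07) overlapped and passed in neither fit.

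Proteins that work with the proteasome were a list of 29 genes, all tested, with a median log2 fold change of 0.02. PAAF1 was the single one lower without the block, and 0 were higher. At an unadjusted p under 0.05, 3 of the 29 were lower and 1 was higher, where 9.2% and 7.18% of all tested genes were. DESeq2 called 3 (PAAF1, UBQLN1 and UBQLN4), beside 3.61% lower and 0.968% higher of the genes it gave an adjusted p. With the block 5 of the 29 were lower, where 13.4% of all tested genes were. They included PAAF1 and the shuttle factors UBQLN1 (log2 fold change -0.24, adjusted p = 7.07e-06) and UBQLN4 (-0.28, adjusted p = 0.000115). The others were the lid subunit SHFM1 (-0.12, adjusted p = 0.0256) and the deubiquitinase USP14 (-0.11, adjusted p = 0.0367). MAFG (0.18, adjusted p = 0.00341), a partner of NFE2L1, was among those higher. The calls of SHFM1 and USP14 were lost without replicate pair 2 (adjusted p = 0.116 and 0.124) and without pair 3 (0.0970 and 0.219).

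NFE2L1 itself was counted at 408, 374 and 379 CPM in the control libraries and at 427, 372 and 387 after INO80 siRNA (log2 fold change 0.03, SE 0.07, adjusted p = 0.872). UCHL5, a deubiquitinase that is a subunit of both the proteasome and the INO80 complex, was counted at 75.2, 80.1 and 77.5 and at 79.5, 83.6 and 83.9 (log2 fold change 0.09, SE 0.06, adjusted p = 0.512). ADRM1, the ubiquitin receptor to which UCHL5 binds, had a log2 fold change of 0.00 (SE 0.06, adjusted p = 0.988).

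Rows that were not tested were at or near 0. PSMA8, the testis form of an alpha subunit, had 0 counts in all 6 libraries, which allows up to 3 counts per library, or 0.126 to 0.178 CPM. PSMB11, the thymus form of PSMB5, had 0 in 5 libraries and 0.05 CPM in INO80 siRNA replicate 1. The further PSMA1 row was at 0, and the further PSMA2 row reached at most 0.165 CPM.

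Several counts share their place in the genome with other rows, and how reads in overlaps were assigned is not given in the sources used here. Of the 48 symbols, 29 overlapped another row and 14 overlapped one on the same strand. PSMD4 overlapped none. PSMD5 overlapped its antisense gene PSMD5-AS1 over 18157 bases. PSMD5-AS1 was counted at 3.96, 3.18 and 3.72 CPM in the control libraries and at 4.23, 5.01 and 4.71 after INO80 siRNA (log2 fold change 0.36, adjusted p = 0.323). PSMD2 lay wholly within the span of EIF2B5, which had 55.5 CPM under control siRNA and 43.6 after INO80 siRNA (log2 fold change -0.35, adjusted p = 0.143, and 5.1e-05 with the block). PSMA6 lay almost wholly within KIAA0391, which was at 0.645 and 1.72 CPM (log2 fold change 1.41, adjusted p = 0.102, and 0.00276 with the block). PSMA2 lay almost wholly (99.7% of its span) within its further row, which reached at most 0.165 CPM. The overlaps of PSMD2, PSMA6 and PSMA2 were on the same strand. The share of these overlaps in the low levels of PSMA2 and PSMA6 was not tested.

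Pseudogenes named after 11 of the members filled 30 rows. The 13 rows of PSMC1 pseudogenes summed to 532 counts over the 6 libraries, which was 14.05% of the 3787 of PSMC1. The 4 rows of PSMA6 pseudogenes held 506 counts, which was 9.43% of those of PSMA6. The pseudogene of PSMD4 held 0, and PIPSL, a fused retrogene with PSMD4 sequence that was looked up after the values were seen, held 168, or 1.19% of the counts of PSMD4.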

How the data were processed

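The authors deposited a table of raw read counts and FPKM values for each gene in 6 RNA-seq libraries (poly-A selected, directional kit). The submitters' processing notes name HISAT2 2.0.1, HTSeq and hg19, while the paper names ELAND and hg38. Of the genes on chromosome 1, 9 end past its length in hg38, so coordinates were taken as GRCh37. All 347430 deposited FPKM values equalled the count per kilobase of exonic length for each 1000000 counted reads within 0.01. The strand setting of the counting is not given in the sources used here.

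Counts were fitted over the whole table in R 4.3.3 with edgeR 4.0.16 (filterByExpr, TMM, quasi-likelihood test, treatment alone), with Benjamini-Hochberg adjustment over 15343 genes and a threshold of 0.05. CPM use TMM library sizes. The fit was also run on simulated counts with changes larger than most of those given here, which cannot test calls of smaller changes. Same-numbered libraries of both groups deviated together from their group means (correlation across genes 0.639, 0.446 and 0.427 for replicates 1, 2 and 3). For libraries of unequal number the correlation ran from -0.447 to 0.165, the latter for control replicate 2 with INO80 siRNA replicate 3. Deviations from a group mean sum to 0, so these correlations are not independent. The labels name no pairing. The replicate number was taken as a pairing from these same data, and the fit with this block is given beside the main one where it changes a call. Other alternatives were DESeq2 1.42.0, other scalings and filters, and each library left out.

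The proteasome genes, the lists of partners, antigen presentation and markers, and the tests were chosen with earlier results of these data known. Genes named are the members, INO80, overlapping genes, and genes of the partner and antigen lists that passed in either fit or were among the 3 with the largest change. NFE2L1, UCHL5, ADRM1 and PIPSL were named after their values were seen. The symbol rule reads no role, and roles come from general knowledge. Intervals and limits of counts cover counting error only. Some genes of these lists are not reported here.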

Additional observations from a re-analysis of the deposited data

How the results depend on the processing

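PSMD4 and PSMD5, which had been chosen on these libraries, kept their direction under each alternative run. Leaving out 1 library at a time gave a log2 fold change of -0.63 to -0.57 for PSMD4, -0.83 to -0.71 for PSMD5 and -1.95 to -1.83 for INO80. The count of proteasome genes past the threshold was 2 in the main fit, 1 to 2 with a library left out, 3 with DESeq2 (PSMF1 added) and 14 with the replicate block. In the blocked fit without replicate pair 1, 2 or 3, chosen after seeing the data, it was 18, 8 and 7. Over all genes the count was 268, and it became 610 with DESeq2, 708 without a filter, 3798 with the replicate block, 3978, 2623 and 2251 in the blocked fit without pair 1, 2 or 3, and 18 to 146 with a library left out. The block changed no other call of a gene named here than those given beside it. The median log2 fold change of the proteasome genes stayed between -0.03 and 0.00 with a library left out. No proteasome gene changed sign under median-ratio scaling, library totals, DESeq2 or the block, while 13 of the 46, with log2 fold changes of at most 0.07 in size, took both signs over the fits with a library left out. The fold from the lowest to the highest of the 14 ring subunits under control siRNA was 53.2 with exonic lengths, 51.7 to 55.8 with a control library left out, and 26.0 with canonical transcript lengths, which were added after seeing the data. The tested proteasome genes had mean counts of 324.7 or more per library.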

Other observations

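PSMD4 has PSMB4, a beta ring subunit, as its nearest proteasome gene, 132054 bases away on chromosome 1. PSMB4 was counted at 236, 255 and 257 CPM in the control libraries and at 265, 266 and 263 after INO80 siRNA, so the neighbours lay on opposite sides of 0 (log2 fold change 0.09, SE 0.06, for PSMB4, with no test of the difference). PSMB8 and PSMB9 overlap by 568 bases on chromosome 6, and PSME1 and PSME2 lie 4397 bases apart on chromosome 14. Higher counts in replicate 1 of both groups than in the other 4 libraries were seen for 3 proteasome genes, PSMA2, PSMD6 and PSMD8, and for 14.98% of all tested genes.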
